A study of Mus musculus with 6 samples.

Results

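The mitosis genes are 40 genes whose transcripts peak in the G2 and M phases of the cell cycle. They were taken as a listed set of symbols, and all 40 were found among the 24520 genes of the deposited tables. RNA had been sequenced from lung endothelial cells, the lining cells of blood vessels, which were isolated by fluorescence-activated cell sorting. There were 3 libraries labelled KO and 3 labelled WT for Dnmt3a, which encodes a de novo DNA methyltransferase. The labels give the tissue, the cell type and the genotype, while the sources used here do not give the allele, any Cre driver, the sorting gate, the age of the mice or whether each library came from its own animal. P-values therefore measure the spread between these libraries, which may be technical in part.

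A dividing cell switches on this gene set as a block. In resting cells the DREAM complex, built on the MuvB core, holds the promoters of these genes silent, and in cycling cells the same core pairs with B-Myb and then FoxM1 to activate them. Cyclin B with CDK1 starts mitosis, Aurora and Polo-like kinases build the spindle, the kinetochore and the spindle checkpoint hold anaphase back until chromosomes are attached, and the anaphase-promoting complex ends it. Most endothelial cells of an adult lung are at rest, and transcripts of most of these genes come mainly from the cells that are cycling. Fewer cycling cells and less of each transcript per cell cannot be told apart in bulk libraries.

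Promoter sequence is shown first, because shared elements are the textbook mark of this gene set. RefSeq promoter windows of GRCm38.p6, the mm10 assembly, run from 250 bases before to 50 bases after an annotated start. A window was given for 33 of the 40 genes. Tpx2, Aurkb, Foxm1, Ccna2, Kif20a, Stmn1 and Incenp were not matched to one. The cell cycle homology region, the element bound by MuvB, was searched as TTTGAA or its reverse complement TTCAAA, and the CCAAT box, bound by NF-Y, as CCAAT or ATTGG. The following stretches start 120 bases before the start and end 30 bases after it, and capitals mark matches to either motif. The Cdk1 stretch lies at chr10:69352883-69353032 on the minus strand, Ccnb2 at chr9:70421525-70421674 on the minus strand and Top2a at chr11:99024160-99024309 on the minus strand. Ube2c lies at chr2:164769809-164769958 on the plus strand and Ttk at chr9:83834569-83834718 on the plus strand. Kif11 lies at chr19:37376262-37376411 on the plus strand, Kif4 at chrX:100625945-100626094 on the plus strand and Mad2l1 at chr6:66535101-66535250 on the plus strand. The first 3 show several CCAAT boxes with the homology region close to the start. Ttk had the largest fold change of the set and Kif4 the smallest p-value, and Mad2l1 is shown as a member with no match. The Mad2l1 stretch ends before 66535390, where the GENCODE annotation starts this gene, so its lack of a match may depend on the start used.
Cdk1: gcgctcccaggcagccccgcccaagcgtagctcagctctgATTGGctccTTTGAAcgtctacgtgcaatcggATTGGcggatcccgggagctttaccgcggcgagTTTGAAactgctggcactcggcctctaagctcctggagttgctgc
Ccnb2: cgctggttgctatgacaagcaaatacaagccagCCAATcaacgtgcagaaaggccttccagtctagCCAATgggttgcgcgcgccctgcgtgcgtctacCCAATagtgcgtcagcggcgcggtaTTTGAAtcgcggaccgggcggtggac
Top2a: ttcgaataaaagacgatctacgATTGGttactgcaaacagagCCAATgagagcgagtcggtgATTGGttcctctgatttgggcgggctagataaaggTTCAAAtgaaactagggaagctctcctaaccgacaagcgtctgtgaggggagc
Ube2c: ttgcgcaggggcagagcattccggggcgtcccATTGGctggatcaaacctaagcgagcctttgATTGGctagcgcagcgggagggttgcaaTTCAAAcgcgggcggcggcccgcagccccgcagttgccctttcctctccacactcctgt
Ttk: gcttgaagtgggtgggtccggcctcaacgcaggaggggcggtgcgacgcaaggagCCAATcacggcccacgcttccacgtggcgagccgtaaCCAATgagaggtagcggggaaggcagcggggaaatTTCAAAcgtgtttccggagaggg
Kif11: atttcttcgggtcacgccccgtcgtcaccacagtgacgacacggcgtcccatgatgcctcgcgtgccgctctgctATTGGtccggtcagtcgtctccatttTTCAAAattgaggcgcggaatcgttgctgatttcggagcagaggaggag
Kif4: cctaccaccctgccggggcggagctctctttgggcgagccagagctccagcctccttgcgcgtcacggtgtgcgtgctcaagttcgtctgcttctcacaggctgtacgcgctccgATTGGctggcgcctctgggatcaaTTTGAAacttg
Mad2l1: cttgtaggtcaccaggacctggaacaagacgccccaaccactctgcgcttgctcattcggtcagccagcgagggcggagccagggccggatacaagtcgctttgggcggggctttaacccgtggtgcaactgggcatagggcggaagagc

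The homology region was found in 25 of the 33 windows (75.8%), against 20.2% of 27025 genes with a window. A CCAAT box was found in 26 (78.8%), against 41.1% of all genes, and both motifs in 22 (66.7%), against 7.97%. The homology region lay within 50 bases of the start in 23 of the 33 genes (69.7%), against 5.72% of all genes. At least 2 CCAAT boxes were present in 17 (51.5%), against 13.3%. The motifs overlapped each other at 1 place in 1 window. A match describes the letters of a window and is no measure of binding.

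**Figure D1:**
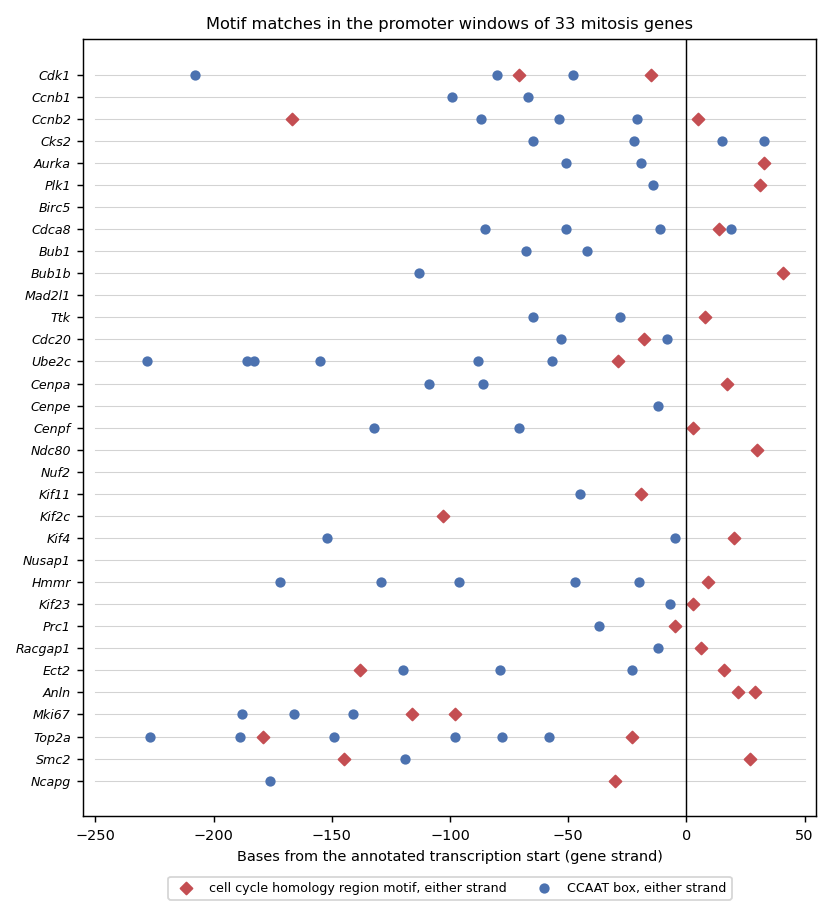
Positions of motif matches in the promoter windows of the 33 mitosis genes that have one; the horizontal axis gives bases from the annotated start along the gene's strand, diamonds mark the cell cycle homology region and circles the CCAAT box, each on either strand. In 23 genes a diamond lies within 50 bases of the start, and the circles lie mostly upstream of it.

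The libraries held 28136194, 31402838 and 29221600 estimated counts in KO replicates 1, 2 and 3, and 31886755, 29482747 and 39999172 in WT replicates 1, 2 and 3. Dnmt3a itself went against its label: it had 5090, 4878 and 4750 counts in the libraries labelled KO, against 1235, 1079 and 1198 in those labelled WT, a log2 fold change of 2.22 (SE 0.11; edgeR quasi-likelihood adjusted p = 0.0016). Groups are therefore named here by their labels. Replicate 1 under each label came from a female and replicates 2 and 3 from males: Xist had 21115 counts in KO replicate 1 and 17895 in WT replicate 1, and at most 60 in the other 4 libraries. The summed CPM (counts scaled by depth and TMM factors) of 15 pan-endothelial markers was 22303 to 27442 in KO and 24023 to 29372 in WT libraries, with none of the markers at 0. Across all 14667 tested genes, edgeR called 5 (3 higher and 2 lower in KO).

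All 40 mitosis genes passed the filter on low counts. Their counts ran from 13 to 24417 per gene and library, and the second lowest was 65. Levels that take transcript length into account spanned a wide range: mean TPM over all 6 libraries was 2.71 for Nuf2, a kinetochore subunit, and 1111 for Stmn1, a tubulin-binding protein that non-dividing cells also make. The median gene lay at 19.3 TPM.

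The direction was shared by the whole set, but no gene in it passed the test. Of the 40 genes, 40 had a negative fitted log2 fold change (KO over WT), against 49.1% of all tested genes. Their median log2 fold change was -0.64, against 0.01 for all tested genes, and single genes ran from -1.86 (Ttk, SE 0.80) to -0.20 (Ccna2, SE 0.39). No member was among the 5 genes called over all genes (0.0341%), and the smallest adjusted p among the 40 was 0.240, for Kif4. At an unadjusted p under 0.05, 6 of 40 genes were lower in KO, namely Anln, Aurkb, Bub1b, Cdca8, Kif4 and Ndc80 (15%, against 5.77% of tested genes). CPM lay lower in every KO than in every WT library for 6 genes, Aurka, Cdca8, Kif4, Stmn1, Top2a and Ttk, which is 15% against 9.42% of all genes. On the TPM scale this held for 3 of them, Cdca8, Kif4 and Ttk. DESeq2 called 389 genes, of which 178 were lower (1.21%), and 1 of these was a member, Kif4. In simulated data with known changes, DESeq2 made 50 false calls and edgeR 5, while edgeR recovered 43% of 2-fold changes and DESeq2 68%. Single libraries moved the results for the members. Without KO replicate 2 the median log2 fold change was -0.36 and 37 of 40 genes were negative, and without KO replicate 1 they were -1.07 and 40. The number lower at an unadjusted p under 0.05 was 32 without KO replicate 1, against 6.62% of all genes tested in that fit. It was 2 without KO replicate 2 (6.38% of all genes), KO replicate 3 (4.27%) or WT replicate 1 (6.11%), 1 without WT replicate 2 (4.95%) and 3 without WT replicate 3 (3.02%). Lower values without overlap were found for 37 members without KO replicate 1, against 15.2% of tested genes, and for 13 without WT replicate 1 (15.7%) or WT replicate 3 (12.3%). They were found for 6 members (15%) without KO replicate 2 (16.4% of tested genes), KO replicate 3 (13.9%) or WT replicate 2 (15%), near the share of all genes.

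**Figure D2:**
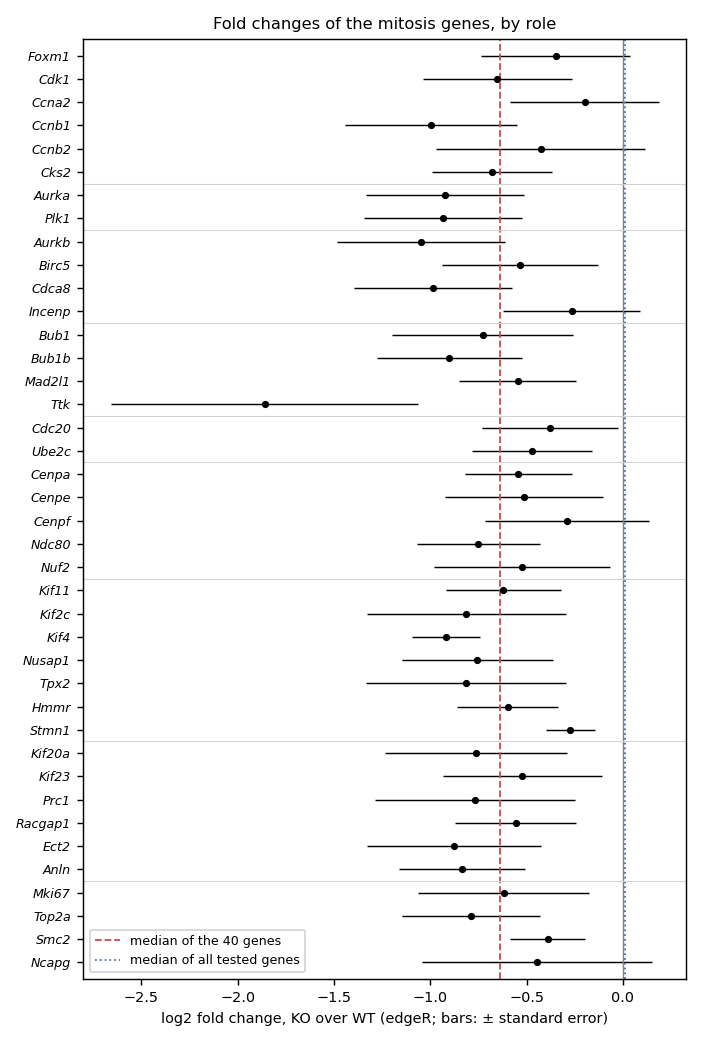
Fitted log2 fold change of each mitosis gene, KO over WT, from edgeR (points) with its standard error (bars), ordered by role from regulators at the top to chromosome proteins at the bottom. Every point lies left of 0, the dashed line marks the median of the 40 genes at -0.64, and the bars of 6 genes (Foxm1, Ccna2, Ccnb2, Incenp, Cenpf and Ncapg) reach past 0.

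The KO libraries had the same order for most of these genes. KO replicate 2 was the lowest of the 6 libraries for 37 of 40 genes, against 20.7% of all tested genes. The exceptions were Incenp, lowest in WT replicate 1, and Nuf2 and Ttk, both lowest in KO replicate 3. Within KO, replicate 1 was above replicate 3 and replicate 3 above replicate 2 in 37 genes, against 17.2% of tested genes. The median gene stood at 93.2%, 32.6% and 60.1% of its WT mean in KO replicates 1, 2 and 3. The same medians were 90.8%, 120% and 86.8% in WT replicates 1, 2 and 3, and WT replicate 2 was the highest of all 6 libraries for 35 genes.

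KO replicate 1 was close to the WT libraries: it lay within the WT range for 31 of 40 genes, against 42.6% of tested genes, and above every WT library for 3 (Ccna2, Cenpf and Ncapg). KO replicate 2 was below 50% of the WT mean for 35 genes, against 9.09% of tested genes. The KO libraries therefore spread more widely than the WT libraries. The SD of log2 CPM was wider among KO than WT libraries for 38 of 40 genes, against 56% of tested genes, with a median SD of 0.864 in KO and 0.265 in WT. Over all tested genes these medians were 0.262 in KO and 0.221 in WT.

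**Figure D3:**
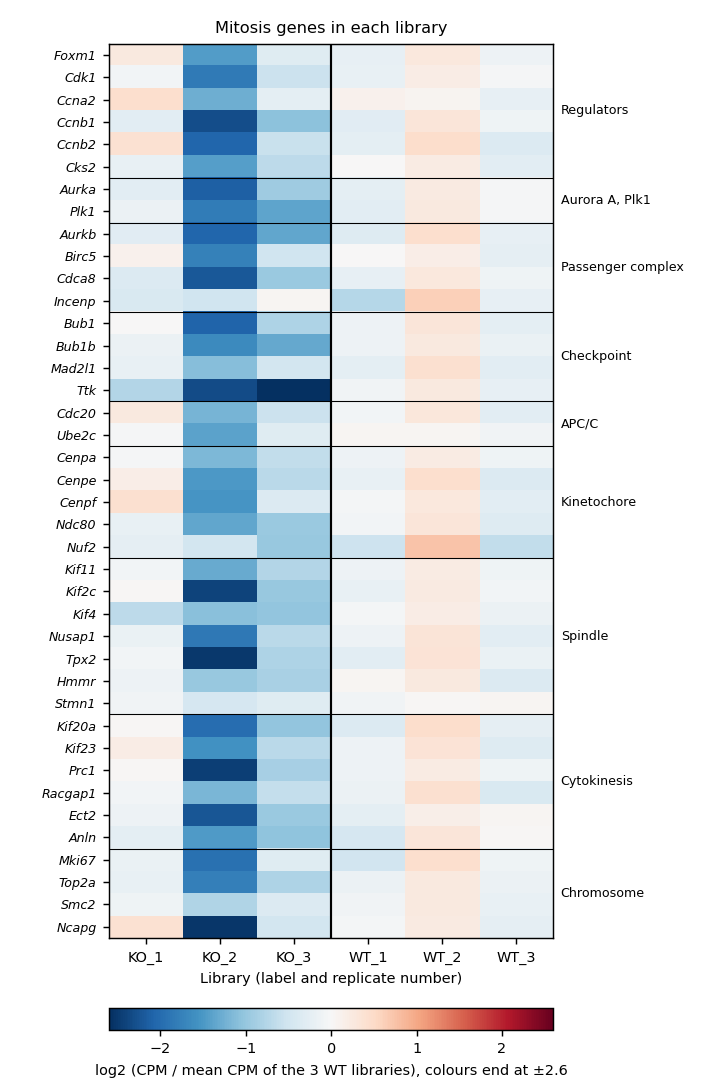
Level of each mitosis gene (rows, by role) in each library (columns) as log2 of CPM over the mean CPM of the 3 WT libraries, blue for lower and red for higher; colours end at the limits of the scale. KO replicate 2 is the darkest column for 37 of the 40 genes, and KO replicate 1 has nearly the shades of the WT columns.

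Split by sex, the lower values sat in the males. In male libraries both KO samples were below both WT samples for 38 of 40 genes, against 21.5% of tested genes; Incenp and Nuf2 overlapped. The log2 ratio of mean CPM, KO over WT, was below 0 for all 40 genes in males, with a median of -1.14 and a range of -3.14 (Ttk) to -0.42 (Stmn1). In the female pair, KO replicate 1 was below WT replicate 1 for 13 of 40 genes, against 50.2% of tested genes, and above it for 27. The median log2 ratio of the female pair was 0.10, from -0.67 (Ttk) to 0.64 (Ccnb2), with 1 library per label and so no replicate check. A fit of the male libraries alone gave a median log2 fold change of -1.15 and 29 genes lower at an unadjusted p under 0.05 (5.96% of all genes in that fit), but called 0 of the 40 members and 0 of 14643 genes in edgeR, with 1572 at an unadjusted p under 0.05. DESeq2 was not run on the males alone. With sex as a covariate the median was -0.71, 13 genes were lower at an unadjusted p under 0.05 (5.56% of all genes), and none of the 40 was called.

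The difference between the sexes was itself tested as an interaction in edgeR over all genes. The male effect minus the female effect was negative for all 40 genes, with a median of -1.32 on the log2 scale, against 0.01 for all tested genes. The unadjusted p was under 0.05 for 5 of the 40 genes, against 350 of all 14667 tested genes. The 5 were Plk1 (0.00560), Anln (0.00792), Bub1b (0.0116), Aurkb (0.0246) and Kif20a (0.0304). All 5 were negative, as were 212 of the 350. No member and no other gene was called after adjustment, and the smallest adjusted p was 0.9999. Since KO held a single female library, sex and whatever else is particular to KO replicate 1 cannot be told apart.

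Regulators of mitotic entry comprised 6 genes, and KO replicate 2 was the lowest library for all of them, at a median of 32.1% of the WT mean. Ccnb1, cyclin B1, had 47.0, 11.6 and 27.4 CPM in KO replicates 1, 2 and 3, against 46.8, 71.5 and 53.1 CPM in WT replicates 1, 2 and 3. Its log2 fold change was -0.996 (SE 0.45), and the groups overlapped only through KO replicate 1. Cks2, a small CDK-binding subunit and the most abundant of the 6 (mean 74.4 TPM), had 22.6, 9.48 and 16.05 CPM in KO, against 25.9, 29.97 and 21.1 CPM in WT. Cdk1, the kinase that drives mitosis, was at 50.9, 15.1 and 36.4 CPM in KO and 47.0, 61.2 and 52.6 CPM in WT libraries. KO replicates 2 and 3 lay below every WT library for both genes. Ccnb2, cyclin B2, and Foxm1, the transcription factor of the set, lay at -0.43 (SE 0.54) and -0.35 (SE 0.39) on the log2 scale. Ccna2, cyclin A2, which acts in S phase as well as G2, gave the smallest difference of the 40 and stood at 136% of the WT mean in KO replicate 1.

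The mitotic kinases Aurka, which matures centrosomes, and Plk1, which acts from entry to exit, gave similar values. Aurka had 25.7, 7.23 and 16.6 CPM in KO, against 26.3, 36.9 and 30.8 CPM in WT replicates 1, 2 and 3, and its groups did not overlap, by a margin of less than 1 CPM between the first replicates. Plk1 had 33.1, 10.4 and 14.2 CPM in KO, against 30.3, 44.0 and 36.2 CPM in WT. Their log2 fold changes were -0.92 and -0.93 (SE 0.41 each). KO replicate 2 was lowest for both.

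The chromosomal passenger complex corrects faulty chromosome attachments and later marks the cleavage plane. Aurkb, its kinase, had 30.8, 9.01 and 14.9 CPM in KO, against 29.8, 51.0 and 32.4 CPM in WT libraries, a log2 fold change of -1.05 (SE 0.44). Cdca8, or borealin, had 38.8, 10.7 and 25.4 CPM in KO, against 42.8, 59.7 and 45.9 CPM in WT, with no overlap (log2 fold change -0.99, SE 0.41). Birc5, or survivin, the most abundant of the 4, had 40.04, 11.1 and 26.0 CPM in KO, against 37.6, 42.1 and 31.8 CPM in WT. These 3 subunits shared the order of the KO libraries, and the scaffold Incenp did not. Incenp had 11.1, 10.1 and 15.1 CPM in KO, against 8.70, 22.4 and 12.6 CPM in WT, so that KO replicate 3 exceeded WT replicates 1 and 3.

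Among the spindle checkpoint genes, which delay anaphase, Ttk had the lowest relative level anywhere in the set. Ttk, the kinase MPS1 that starts checkpoint signalling (chr9:83834689-83872389), had 7.57, 2.54 and 0.440 CPM in KO, against 12.1, 15.3 and 11.0 CPM in WT. Its value in KO replicate 3 rests on 13 counts (95% Poisson interval 6.92 to 22.2, which covers counting error only) and is 3.44% of the WT mean. The KO libraries were all below the WT libraries for this gene, but differed so much among themselves that the log2 fold change of -1.86 carried a standard error of 0.80 (edgeR adjusted p = 0.396). Bub1b, or BUBR1, had 41.8, 14.8 and 18.6 CPM in KO, against 42.8, 56.1 and 41.4 CPM in WT. The kinase Bub1 and the inhibitor Mad2l1, or MAD2, lay at log2 fold changes of -0.73 (SE 0.47) and -0.55 (SE 0.30), and KO replicate 2 was lowest for both.

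Ube2c and Cdc20 serve the anaphase-promoting complex, as its ubiquitin-conjugating enzyme and its activator. Ube2c had 33.2, 12.9 and 27.5 CPM in KO, against 35.1, 35.0 and 31.9 CPM in WT. The 3 WT libraries were close together, and KO replicates 2 and 3 lay below all of them, replicate 2 by more. The log2 fold change of Ube2c was -0.47 (SE 0.31), and that of Cdc20 was -0.38 (SE 0.35).

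Of the kinetochore genes, Cenpa, the histone H3 variant of centromeres, had 40.4, 18.5 and 26.5 CPM in KO, against 37.9, 48.4 and 38.2 CPM in WT. Ndc80, which grips microtubules, had 18.8, 8.42 and 11.0 CPM in KO, against 20.5, 26.8 and 17.0 CPM in WT, a log2 fold change of -0.75 (SE 0.32). KO replicates 2 and 3 lay below all WT libraries for both. Nuf2, the direct partner of Ndc80, did not follow it. It had 3.69, 3.14 and 2.20 CPM in KO, against 2.98, 7.25 and 2.78 CPM in WT, where only WT replicate 2 stood out. The motor Cenpe and the large coiled-coil protein Cenpf differed by -0.51 (SE 0.41) and -0.29 (SE 0.42) on the log2 scale, and Cenpf was at 133% of the WT mean in KO replicate 1.

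Kif4, a chromosome-bound motor that organises the central spindle (chrX:100625737-100727214), was the spindle gene with the largest fold change, and its KO libraries lay close together. It had 16.4, 12.5 and 13.0 CPM in KO, against 25.3, 30.2 and 23.6 CPM in WT. Every KO library was below every WT library, in the female pair (log2 ratio -0.63) as in the males (-1.08). The log2 fold change was -0.92 (SE 0.18), with an adjusted p of 0.240 in edgeR and of 0.00181 in DESeq2. Exons of Pdzd11, with 770 to 1281 counts, overlap Kif4 on the other strand, and whether the counting used strand is not stated.

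Stmn1 showed the smallest relative deficit in KO replicate 2, at 74.2% of the WT mean. It had 584, 461 and 497 CPM in KO, against 586, 632 and 647 CPM in WT, a log2 fold change of -0.27 (SE 0.13), and the groups were separated by the gap between the first replicates alone. The other spindle genes showed larger deficits: Tpx2, which activates Aurora A, was at 17.7% and Kif2c, a microtubule-depolymerising kinesin, at 18.9% of the WT mean in KO replicate 2. Kif11, the motor that separates spindle poles, was at 40.6%. Nusap1, a microtubule bundler, was at 27.5% and Hmmr, a spindle-associated hyaluronan receptor, at 50.3%. All 7 spindle genes were lowest in KO replicate 2.

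**Figure D4:**
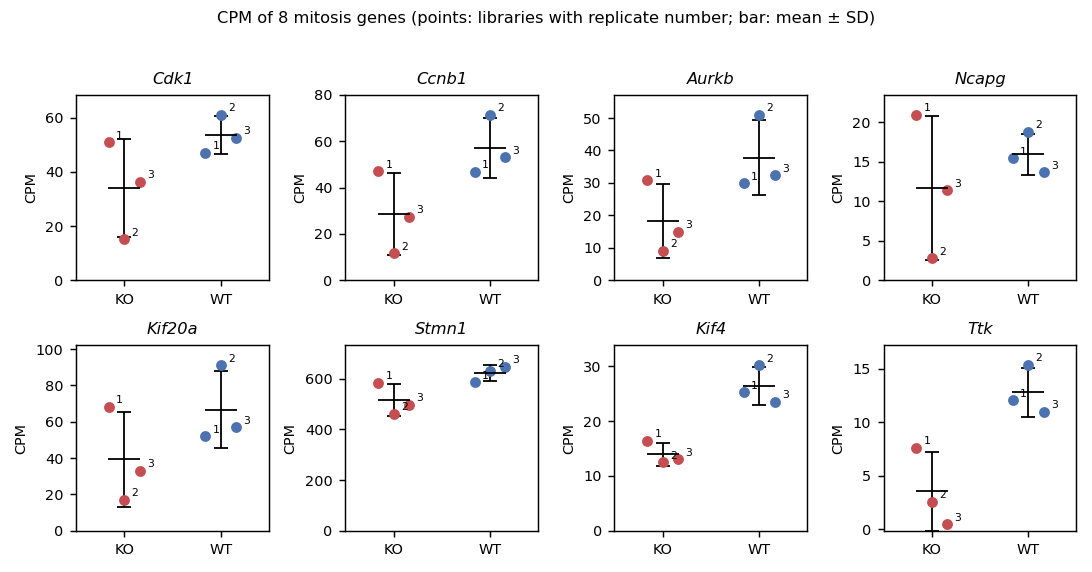
CPM of 8 mitosis genes in each library; points are libraries with their replicate number, and the bar and whiskers are the mean and SD of the 3 libraries labelled KO (left in each panel) or WT (right). For 6 genes KO replicate 1 lies among or near the WT points and replicate 2 at the bottom, whereas the Kif4 points of KO lie together between 12.5 and 16.4 CPM and Ttk is lowest in KO replicate 3.

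For each of the 6 cytokinesis genes, KO replicates 2 and 3 were below every WT library. Ect2, the exchange factor that activates RhoA at the cleavage furrow, had 25.5, 6.04 and 14.4 CPM in KO, against 23.7, 31.4 and 29.2 CPM in WT (log2 fold change -0.88, SE 0.45). Prc1, which bundles the central spindle, had 57.2, 10.1 and 30.8 CPM in KO, against 51.2, 64.5 and 51.3 CPM in WT. KO replicate 1 lay within the WT range for both. The other 4 were Kif20a and Kif23, motors of the midzone, Racgap1, the partner of Kif23, and Anln, the furrow scaffold, with log2 fold changes of -0.76, -0.52, -0.56 and -0.84 (SE 0.47, 0.41, 0.32 and 0.33).

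Among chromosome proteins, Top2a, the topoisomerase that untangles sister chromatids, had 136, 45.1 and 88.5 CPM in KO, against 140, 186 and 140 CPM in WT, without overlap (log2 fold change -0.79, SE 0.36). Ncapg, a condensin subunit, covered the widest fold range within KO short of Ttk, with 20.9, 2.77 and 11.4 CPM in KO, against 15.4, 18.8 and 13.6 CPM in WT. It was thus the highest of all libraries in KO replicate 1 and at 17.4% of the WT mean in replicate 2. Mki67, the source of the Ki-67 proliferation antigen, had 54.4, 16.1 and 49.8 CPM in KO, against 43.9, 83.8 and 57.1 CPM in WT. Smc2, a condensin core ATPase, was the least reduced of the 4 in KO replicate 2, at 58.3% of the WT mean.

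Genes with and without an exact match to the homology region in the window covered overlapping levels. In KO replicate 2, the 25 genes with it were at a median of 31.7% of the WT mean (17.4% to 58.3%), and the 8 genes without it at 32.7% (20.3% to 72.3%). Ttk, which was lowest in KO replicate 3, and Kif4, whose KO libraries were alike, both carry the motif.

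Other cell cycle lists were read in the same fit, and no gene of any of them was called by edgeR. Of 76 other mitosis genes, 67 were on the negative side, against 49.1% of all tested genes, the median log2 fold change being -0.58. At an unadjusted p under 0.05, 13 were lower, against 5.77% of all tested genes. Kifc1, a minus-end motor, had 3.67, 1.498 and 1.73 TPM in KO, against 6.82, 8.57 and 7.59 TPM in WT (log2 fold change -1.76, SE 0.41). DESeq2 called 3 genes of that list, Kifc1, Cdc25b and Bora, all lower in KO, against 1.21% of all genes called lower. KO replicate 2 was the lowest library for 56 of the 76, against 20.7% of all tested genes. Of the most abundant genes of the list, Pttg1, or securin, had a log2 fold change of 0.02 (SE 0.14) and was highest in KO replicate 2. Bub3, a checkpoint protein, had a log2 fold change of -0.20 (SE 0.10) and was lowest in KO replicate 2. Its groups did not overlap by CPM, as for 17 of the 76 genes, against 9.42% of all tested genes. By TPM they overlapped, with 159 TPM in KO replicate 1, against 158 and 155 TPM in WT replicates 1 and 3. The 15 genes listed for the core of the anaphase-promoting complex, which stay in use outside mitosis and include the activator Fzr1, had a median of -0.04. Its most abundant subunits Anapc5 and Anapc13 were at 0.02 (SE 0.13) and -0.10 (SE 0.17), and Cdc16 had the largest value, 0.44 (SE 0.20).

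DNA replication genes, which are expressed in S phase, went the same way: 42 of 43 were negative, against 49.1% of all tested genes. Their median log2 fold change was -0.57, and 18 were lower at an unadjusted p under 0.05, against 5.77% of all tested genes. KO replicate 2 was lowest for 34 of the 43, against 20.7% of all tested genes. Their median there was 48.6% of the WT mean, against 32.6% for the 40 mitosis genes. DESeq2 called 5 of the 43, Gins2, Rfc4, Rrm2, Tyms and Lig1, all lower, against 1.21% of all genes called lower. Orc1, of the origin recognition complex, had 0.688, 0.0448 and 0.432 TPM in KO, against 1.26, 1.35 and 1.86 TPM in WT. Pcna, the sliding clamp, and Slbp, which binds histone mRNA, were the most abundant of the list, at log2 fold changes of -0.06 (SE 0.10) and -0.14 (SE 0.14).

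Lists of upstream regulators had medians closer to 0. A list of DREAM and MuvB genes, which also holds Rb1, further E2F factors such as E2f2 and the NF-Y subunits, had 20 measured genes. Their median log2 fold change was -0.21. Lin37 was at 0.01 (SE 0.14), Nfyb at -0.25 (SE 0.14) and E2f2 at -1.09 (SE 0.24). DESeq2 called 3 of the 20, all lower, against 1.21% of all genes called lower. These were E2f2 (DESeq2 adjusted p = 0.0053), Lin9 of the MuvB core and the histone-binding Rbbp4. Lin9 had a log2 fold change of -0.72 (SE 0.18) in edgeR and a DESeq2 adjusted p of 0.033. Rbbp4 was at -0.61 (SE 0.16) in edgeR, with a DESeq2 adjusted p of 0.040. The list of G1 cyclins and CDKs, which also holds the ubiquitin ligase subunit Skp2, had 9 genes with a median of -0.12. Cdk4 was at -0.53 (SE 0.15), Ccnd3 at 0.41 (SE 0.13) and Skp2 at -0.71 (SE 0.29), and DESeq2 called Cdk4 (adjusted p = 0.044). Of 12 CDK inhibitors and quiescence genes tested, 3 were negative, against 49.1% of all tested genes, and the median was 0.22. Cdkn1a, the CDK inhibitor p21, had 92.4, 701 and 230 TPM in KO, against 79.5, 119 and 124 TPM in WT (log2 fold change 1.60, SE 0.66). It was highest in KO replicate 2 and next highest in KO replicate 3, the libraries in which the mitosis genes were lowest. In WT, Cdkn1a was higher in replicate 2, where most mitosis genes were highest, than in replicate 1. A link between Cdkn1a and the mitosis genes was not tested. Btg2, an anti-proliferative gene, was at 0.28 (SE 0.17), and Gas1, a growth arrest gene, at 1.74 (SE 0.58).

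**Figure D5:**
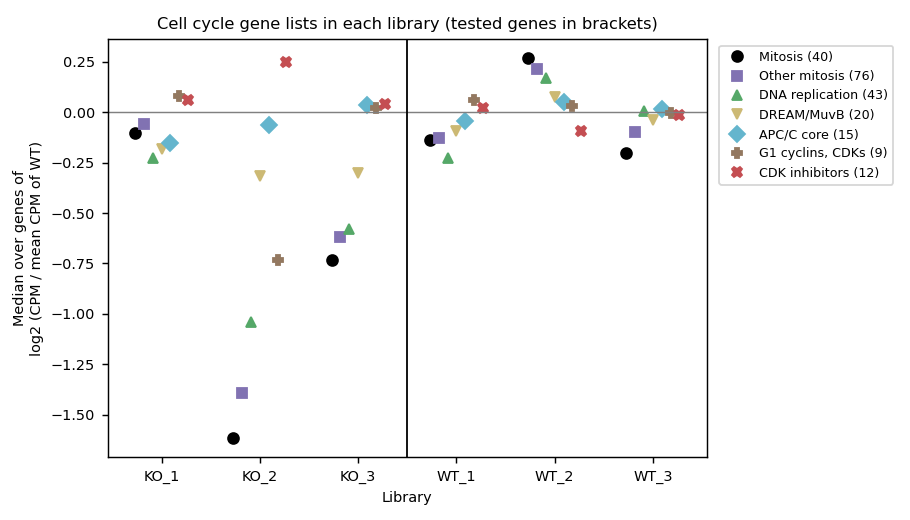
Median over the genes of each cell cycle list of log2 CPM relative to the mean of the 3 WT libraries, by library, with the number of tested genes in brackets. In KO replicate 2 the mitosis genes are at -1.62, the other mitosis genes at -1.39 and the replication genes at -1.04. The APC/C core list, which includes the activator Fzr1, is at -0.06 there and the CDK inhibitors at 0.25.

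Some markers of other cells, of aerocyte capillary cells and of RNA content also differed between the libraries, in part in another order. Summed over the 39 mitosis genes other than Stmn1, TPM was 1095, 341 and 653 in KO replicates 1, 2 and 3, and 968, 1303 and 871 in WT replicates 1, 2 and 3. The 7 erythroid markers summed to 2468, 657 and 1288 CPM in KO, against 902, 3701 and 2170 CPM in WT, so KO replicate 2 was lowest and WT replicate 2 highest in both sums. WT replicate 1 was below KO replicate 3 in the erythroid sum only. All 7 erythroid markers had a negative log2 fold change and none was called or at 0. The sum of the 7 aerocyte markers was highest in KO replicate 2 (2600 to 5401 CPM in KO and 3103 to 3644 CPM in WT). Of these markers, Apln was lowest in KO replicate 2 (112 CPM), and Tbx2 was highest in KO replicate 3 (112 CPM, against 82.4 CPM in KO replicate 2). The nuclear RNA Malat1 had 12512, 20574 and 16343 CPM in KO, against 9807, 10376 and 5861 CPM in WT. Fibroblast markers summed to 317 to 461 CPM in KO, highest in replicate 1, and 166 to 238 CPM in WT, with 1 of 9 genes called and none at 0. Alveolar type 2 markers summed to 3796, 2485 and 797 CPM in KO, against 9743, 352 and 4303 CPM in WT. All 10 had a negative log2 fold change and none was called. The part of these in the result was not tested. Macrophage and monocyte markers summed to 6.3996 to 8.72 CPM in KO and 6.58 to 10.4 CPM in WT, with Csf1r and Marco at 0, and T and NK cell markers to 2.34 to 5.28 CPM in KO and 2.07 to 3.35 CPM in WT.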

How the data were processed

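Per the labels' protocols, RNA of sorted lung endothelial cells was extracted with a PicoPure kit, made into libraries from amplified cDNA (SMARTer kit) and read from both ends on a HiSeq. The submitters' processing notes name kallisto and mm10; the sources used here give no version, annotation or use of strand. The authors deposited estimated counts per gene, in whole numbers, and TPM values, whose columns sum to 875864 to 885609. Symbols (24298 of 24520 identifiers) and gene coordinates came from a GENCODE annotation of mm10; the 222 identifiers without one took 0.0300% to 0.0400% of counts. No row was a summary row.

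Estimated counts were rounded, which changed none, and tested with edgeR 4.0.16 (quasi-likelihood, TMM, filterByExpr by group, limma 3.58.1, R 4.3.3) on 6 libraries without covariates, with Benjamini-Hochberg adjustment at 0.05 over 14667 genes. The standard error is the log2 fold change over the square root of F. Alternatives were DESeq2 1.42.0; scaling by upper-quartile or RLE factors, by library size or to pan-endothelial counts; testing unfiltered genes or those averaging 50 counts or more; a replicate block; robust dispersions; limma on log2(TPM + 1), log2(TPM + 0.1) and log2(TPM + 1) with at least 1 TPM in 3 libraries, and each library left out. Fits with sex (called from Y-linked genes and Xist) as covariate or interaction, and of males alone, were added after the data were seen. The code was tested on simulated data, with 100 genes changed 2-fold and 100 changed 4-fold. Of these, edgeR recovered 43 and 85, and DESeq2 68 and 96. False calls numbered 5 in edgeR and 50 in DESeq2, so genes called by DESeq2 alone are less certain.

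The mitosis genes, lists and motifs were chosen with earlier results of these data known, so no test was made on a list. Values in every library were given for Dnmt3a, for genes past the threshold or without overlap, and in each role for the gene with the highest mean TPM and that with the largest fold change; Cdk1, Incenp, Nuf2, Mki67 and Ncapg were added after their values were seen. Of other lists, the genes called, or else the 2 with the highest mean TPM and the 1 with the largest fold change, were named, and those called by DESeq2 were added. Same-label libraries differed by more than counting noise, at 47.3 to 105 of chi-square per degree of freedom; separate animals do not follow from this. Exons of 9 members overlap an annotated gene on the other strand that is also in the tables, and Ccnb1, Ccnb2, Kif4 and Stmn1 have processed copies, so reads could be shared.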

Additional observations from a re-analysis of the deposited data

Results flagged for a closer look

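The direction of the mitosis genes differed between the sexes. The median log2 ratio of CPM, KO over WT, over the 40 genes was -1.14 in the male libraries (2 per label) and 0.10 in the female libraries (1 per label), and the ratio was below 0 for 40 genes in males and for 13 in females. The difference of the medians was not tested. The interaction of sex and label, tested gene by gene in edgeR, passed the threshold for 0 of 40 members and 0 of 14667 genes, with 5 members and 350 genes at an unadjusted p under 0.05. Sex and KO replicate 1 cannot be told apart, since it is the only female library labelled KO.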

How the results depend on the processing

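The 40 genes kept their direction and side of the threshold in 794 of 800 combinations of gene and alternative. Kif4 passed the threshold under DESeq2. Reversed signs came without KO replicate 2 for Ccna2 (0.14), Cenpf (0.074) and Ncapg (0.021), and without WT replicate 2 for Incenp (0.18) and Nuf2 (0.060); the lowest values with a library left out were -0.68 for Ccna2, -0.83 for Cenpf, -1.17 for Ncapg, -0.54 for Incenp and -0.76 for Nuf2. The cause was not tested. The median of the 40 genes was negative under every alternative, from -1.15 in males alone to -0.36 without KO replicate 2; with a library left out it ran from -1.07 to -0.36.

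Over all genes, edgeR called 5, DESeq2 389, limma on log2(TPM + 0.1) 9, the fit with sex as a covariate 2, males alone 0, and the fits with a library left out 1 to 4. Members called were 1 under DESeq2 and 0 elsewhere. Members at an unadjusted p under 0.05, 6 in the edgeR fit, all lower, were 17 under DESeq2 (7.03% of all genes were lower at that p), 1 by library size only (4.86%), 1 scaled to pan-endothelial counts (2.17%), 11 with no filter (5.46%), 13 with sex as a covariate (5.56%), 29 in males alone (5.96%), and 1 to 32 with a library left out (3.02% to 6.62%). Members without overlap, 6 by CPM, were 2 scaled to pan-endothelial counts (4.4% of all genes), 3 in the limma settings on TPM (6.37%), 38 in males alone (21.5%) and 6 to 37 with a library left out (12.3% to 16.4%); this count was not run for DESeq2, RLE or upper-quartile factors. Scaling to pan-endothelial counts put the median of all genes at 0.11 and that of the members at -0.49.

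Deviations of same-numbered libraries correlated at 0.28, -0.05 and -0.18, and those of differently numbered libraries at -0.32 to 0.36. With 3 libraries per label, these values do not settle whether replicate numbers pair the libraries. The number did match sex under both labels. With the replicate block, 0 genes were called over all genes (1472 at an unadjusted p under 0.05), 0 members were called, and the member median was -0.76. Depth limits Ttk in KO replicate 3 most, at 13 counts.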
